A study of Homo sapiens with 6 samples.

Results

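The pocket proteins and the multi-subunit complexes they form with cell cycle transcription factors were followed in MM.1S cells after PRKCN knockdown. Earlier results of these data were known when the genes were picked. The 10 genes were chosen by symbol for their place in these complexes, and the choice used no measured value as a criterion. They are the 3 pocket proteins (RB1, RBL1, RBL2), the 5 subunits of the MuvB core (LIN9, LIN37, LIN52, LIN54, RBBP4), and the 2 activators that join that core later in the cycle (MYBL2, FOXM1). All 10 were among the 21850 genes of the deposited table, and all 10 passed the filter on low counts that kept 13971 genes for testing.

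RNA was sequenced from MM.1S, an established human multiple myeloma cell line. Wild-type MM.1S cells infected with a scramble short hairpin RNA served as the control (shNT, n = 3), and cells of the same line infected with a hairpin against PRKCN formed the knockdown group (shPRKCN, n = 3). Both groups were lentivirally transduced and collected after 72 h (day 3), so the comparison asked which transcripts differed with the hairpin at a single time point in a single line. Which PRKCN hairpin was used is not given in the labels, and with 1 knockdown group an effect of PRKCN loss and an effect particular to the hairpin cannot be told apart. No label says that the 3 libraries of a group came from separate cultures, so each p-value below measures only the spread between these libraries, which may be technical.

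RB and its relatives p107 (RBL1) and p130 (RBL2) bind E2F factors and silence genes that are needed for DNA replication. In resting cells p130 or p107 joins E2F4, a DP partner and the MuvB core to form DREAM, the complex that holds down both early and late cell cycle genes. When cyclin-dependent kinases phosphorylate the pocket proteins the complex comes apart, and the same MuvB core then recruits B-MYB (MYBL2) and afterwards FOXM1 to switch on the genes of mitosis.

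The genome letters that these complexes read are short. E2F and DP factors bind a GC-rich element, while the LIN54 subunit of MuvB binds the cell cycle genes homology region, or CHR, usually close to the start of transcription. Shown first are 4 of the members whose own promoters hold such letters, followed by a late and an early target for comparison. Each line gives, from 5′ to 3′ on the strand of the gene, the 250 bases before and the 50 bases after the first base of the gene in RefSeq (GRCh38.p14). Capitals mark matches, on either strand, to the CHR (TTTGAA or TTCGAA), to a strict E2F element (TTTCCCGC, TTTCGCGC, TTTGCCGC or TTTGGCGC) or to an E2F core (GGCGGGA or GGCGCGA), and the strict and core letters can overlap. The windows are chr20:43666864-43667163 (plus strand) for MYBL2, chr20:37095948-37096247 (minus strand) for RBL1, chr14:74084706-74085005 (plus strand) for LIN52, chr16:53434221-53434520 (plus strand) for RBL2, chr15:59104896-59105195 (plus strand) for CCNB2 and chr17:40287629-40287928 (plus strand) for CDC6.
MYBL2: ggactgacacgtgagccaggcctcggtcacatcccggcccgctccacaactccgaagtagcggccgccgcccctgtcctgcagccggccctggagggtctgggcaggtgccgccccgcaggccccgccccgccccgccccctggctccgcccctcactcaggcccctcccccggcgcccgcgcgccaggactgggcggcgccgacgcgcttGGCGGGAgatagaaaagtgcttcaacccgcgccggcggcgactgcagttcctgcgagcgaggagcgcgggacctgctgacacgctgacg
RBL1: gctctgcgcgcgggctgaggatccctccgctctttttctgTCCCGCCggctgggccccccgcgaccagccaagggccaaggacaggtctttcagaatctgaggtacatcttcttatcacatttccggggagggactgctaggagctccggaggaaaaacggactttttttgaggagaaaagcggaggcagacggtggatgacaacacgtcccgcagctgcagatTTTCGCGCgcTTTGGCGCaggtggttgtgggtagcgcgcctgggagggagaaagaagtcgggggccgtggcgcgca
LIN52: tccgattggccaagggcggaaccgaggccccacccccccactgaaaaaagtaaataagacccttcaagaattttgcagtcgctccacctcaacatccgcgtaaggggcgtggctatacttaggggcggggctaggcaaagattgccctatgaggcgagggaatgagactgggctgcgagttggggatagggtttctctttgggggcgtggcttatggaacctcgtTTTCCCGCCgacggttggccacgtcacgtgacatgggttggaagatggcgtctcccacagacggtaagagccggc
RBL2: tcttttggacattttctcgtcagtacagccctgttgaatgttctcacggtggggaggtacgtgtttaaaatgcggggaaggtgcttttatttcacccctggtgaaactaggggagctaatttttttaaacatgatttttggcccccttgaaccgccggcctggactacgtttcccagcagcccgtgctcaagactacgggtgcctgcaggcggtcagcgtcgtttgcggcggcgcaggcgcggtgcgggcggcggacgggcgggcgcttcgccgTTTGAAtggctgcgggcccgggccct
CCNB2: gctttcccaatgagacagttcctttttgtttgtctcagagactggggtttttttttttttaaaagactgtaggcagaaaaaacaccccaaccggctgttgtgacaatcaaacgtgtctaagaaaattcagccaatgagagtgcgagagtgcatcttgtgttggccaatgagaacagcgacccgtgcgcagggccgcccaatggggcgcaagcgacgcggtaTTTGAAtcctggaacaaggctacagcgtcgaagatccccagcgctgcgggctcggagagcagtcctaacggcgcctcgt
CDC6: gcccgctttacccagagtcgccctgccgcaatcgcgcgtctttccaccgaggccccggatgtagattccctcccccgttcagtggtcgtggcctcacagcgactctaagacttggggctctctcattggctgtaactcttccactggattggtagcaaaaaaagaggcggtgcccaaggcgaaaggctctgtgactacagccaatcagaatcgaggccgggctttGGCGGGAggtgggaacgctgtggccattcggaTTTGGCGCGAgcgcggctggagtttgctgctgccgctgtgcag

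With the first base of the gene as position 0, MYBL2 held an E2F core from position −39. RBL1 held 2 strict E2F elements, from positions −26 and −16, and an E2F core on the other strand from position −210. LIN52 held a strict element from position −25 that overlapped a core from position −23. RBL2 held a CHR inside the transcribed part, from position 24, and none of the E2F letters. RBBP4, whose window is not printed, held cores from positions −76 and −41. Neither LIN9 nor LIN37 held a CHR or E2F match in its window. RB1, LIN54 and FOXM1 had no promoter entry at the first base of the gene. Entries at other starts were left out, here and in all shares of promoters. Of the 7 members with an entry, 4 held an E2F core (57.1%), against 30.7% of the 9688 tested genes with an entry and 19.0% of all 24781 promoters. A strict E2F element stood in 2 of the 7 (28.6%), against 5.7% of tested genes and 3.3% of all promoters, and a CHR in 1 of the 7 (14.3%), against 11.5% and 16.8%. These are matches of letters in a fixed window and not measured binding.

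PRKCN, listed as PRKD3 (protein kinase D3), was reduced in each library of the knockdown group. Its level was 1272, 1298 and 1216 CPM (counts scaled to a common library size by the TMM method) in shNT and 535, 491 and 527 CPM in shPRKCN. The log2 fold change was −1.29 (SE 0.034), with an adjusted p of 8.2e-43 in edgeR's quasi-likelihood test, which left 41.0% of the control level. Library totals ran from 35625564 to 37730003 counts, and no library repeated another, since the chi-square per degree of freedom was 2.93 to 4.02 within groups and 49.2 to 54.2 between them. All 8 plasma cell markers examined were present, with summed deposited FPKM of 5684 to 5812 in shNT and 5226 to 5450 in shPRKCN, most of it JCHAIN (4136 and 4236 FPKM). Of the 8, IRF4 (log2 fold change −1.85), XBP1 (−1.28) and TNFRSF17 (−1.13) fell past both limits, PRDM1 (−0.54) and MZB1 (−0.23) fell short of the fold limit, SDC1 rose (0.18), and CD38 and JCHAIN did not pass the test. The B cell and myeloid markers examined (MS4A1, PAX5, CD22, CD14, LYZ and CSF1R) had at most 9 counts in any library. Of the T cell markers, CD3D and CD3G had at most 1 count, while CD3E rose from 379 to 419 counts in shNT to 1021 to 1150 counts in shPRKCN (edgeR adjusted p = 7.5e-26) and carried the summed marker FPKM from 7.76 to 8.64 up to 20.4 to 22.8. CD2, with counts of 29, 14 and 13 for shNT and 7, 12 and 25 for shPRKCN, did not pass the test (log2 fold change −0.39).

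Members of the group moved unequally after PRKCN knockdown. The MYBL2, RB1, LIN9 and FOXM1 transcripts fell most, and RBL2 rose. A call required a log2 fold change beyond 0.58 and an adjusted p (Benjamini-Hochberg, over all 13971 genes) under 0.05. At both limits 4 of 10 members were called, where 16.7% of all tested genes were. All 4 were lower and 0 were higher, against a background of 10.6% of all tested genes lower and 6.15% higher. At the adjusted p alone 9 members were lower and 1 was higher (54.2% of all tested genes passed), where 27.8% of all tested genes were lower and 26.5% higher. For all 10 members the 3 shNT libraries did not overlap the 3 shPRKCN libraries in CPM, which held for 58.8% of tested genes (29.8% lower and 29% higher). The median log2 fold change over the members was −0.52, and over all tested genes it was 0.0012.

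**Figure D1:**
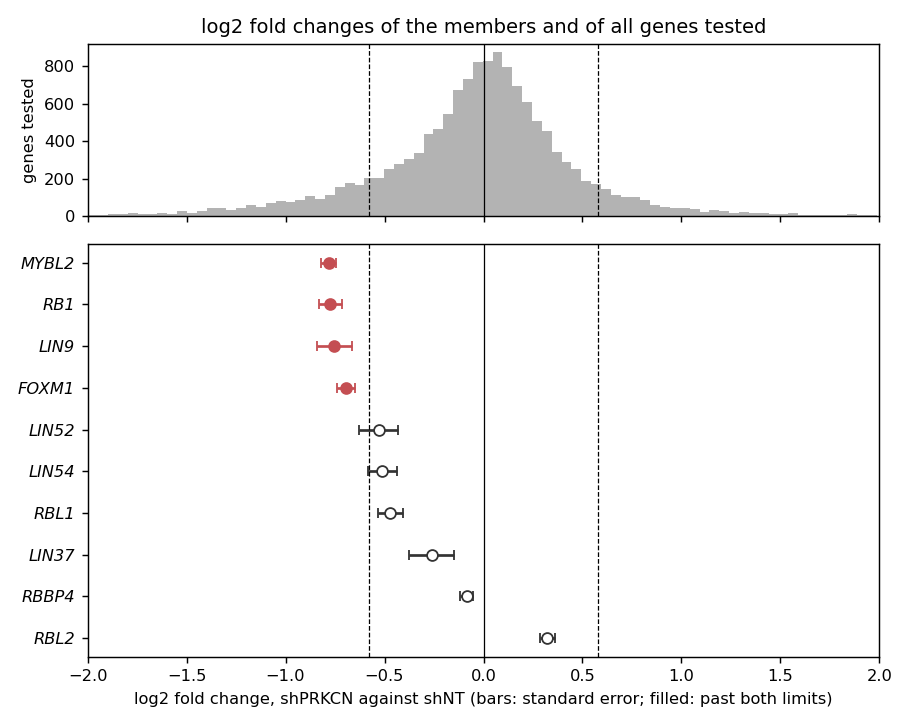
Lower panel, log2 fold change (shPRKCN against shNT) of each of the 10 members with its standard error, filled where past both limits; upper panel, the number of tested genes at each log2 fold change within ±2, with dashed lines at the fold limits. MYBL2, RB1, LIN9 and FOXM1 lie beyond −0.58, RBL2 lies at 0.32, and RBBP4 lies next to 0.

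The pocket proteins diverged. RB1 and RBL1 fell and RBL2 rose, so that the 3 paralogs did not share a direction. RB1, the retinoblastoma tumor suppressor, restrains the activator E2F factors. It lies on chr13:48303751-48481890 (plus strand, GRCh38.p14). RB1 measured 42.3, 44.3 and 46.4 CPM in shNT and 26.9, 25.4 and 25.5 CPM in shPRKCN. Every knockdown library lay far below the lowest control library. The mean went from 44.3 ± 2.07 to 26.0 ± 0.852 CPM (SD, n = 3 each), or 58.5% of control. That is a log2 fold change of −0.77 (SE 0.057, edgeR adjusted p = 3.6e-19).

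RBL1 encodes p107, a pocket protein that cycling cells make under E2F control. The gene lies on chr20:36996349-37095997 (minus strand), and its promoter holds the pair of strict E2F elements printed above. RBL1 measured 39.1, 37.5 and 33.1 CPM in shNT and 25.2, 28.02 and 26.0 CPM in shPRKCN. The control libraries spread more widely than the knockdown libraries, without overlap between the groups. RBL1 fell by 0.47 on the log2 scale (SE 0.062, edgeR adjusted p = 9.8e-10), to 72.1% of control, which was short of the fold limit.

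RBL2 encodes p130, the pocket protein that predominates in resting cells and is the usual partner of MuvB in DREAM. It lies on chr16:53434471-53491648 (plus strand). RBL2 measured 170.4, 167 and 149.8 CPM in shNT and 205, 198 and 206 CPM in shPRKCN. It was the only member that was higher in every knockdown library than in every control library. The mean went from 162 ± 11.04 to 203 ± 4.27 CPM (SD, n = 3 each), a log2 fold change of 0.32 (SE 0.039, edgeR adjusted p = 6.6e-11), which was also short of the fold limit. The log2 fold change stayed between 0.27 and 0.36 under 16 alternative fits, with an adjusted p of at most 0.000495 in any of them. Of the 50-base stretches in RBL2's longest transcript, 16.5% are shared with genes that overlap it on the other strand, chiefly AKTIP, and whether reads were counted by strand is not given in the sources used here. AKTIP itself, at 23.0 CPM in shNT and 21.5 CPM in shPRKCN, did not pass the test (log2 fold change −0.09, edgeR adjusted p = 0.25).

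Set side by side per length of the gene, the 3 pocket proteins changed in proportion. The deposited FPKM (fragments scaled by gene length and library total) of RBL2 took 67.7%, 67.0% and 65.0% of the pocket protein sum in shNT and 79.8%, 79.0% and 80.1% in shPRKCN. RBL2 thus held the largest share in every library of both groups, and a larger one in each knockdown library. RB1's share went from 20.5% ± 1.93 to 11.4% ± 0.31 and RBL1's from 12.9% ± 0.5 to 8.93% ± 0.621 (SD, n = 3 each). Each of these shares gave p = 0.1 in a 2-sided exact permutation test over libraries, which is the smallest value that 3 libraries against 3 allow. RBL2 rose and RB1 and RBL1 fell, each without overlap between the groups, so the p of RBL2's share was fixed by those values. The summed FPKM of the 3 genes ran from 42.6 to 46.394 in shNT and from 46.392 to 48.4 in shPRKCN, so the total overlapped by a narrow margin while its make-up did not.

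**Figure D2:**
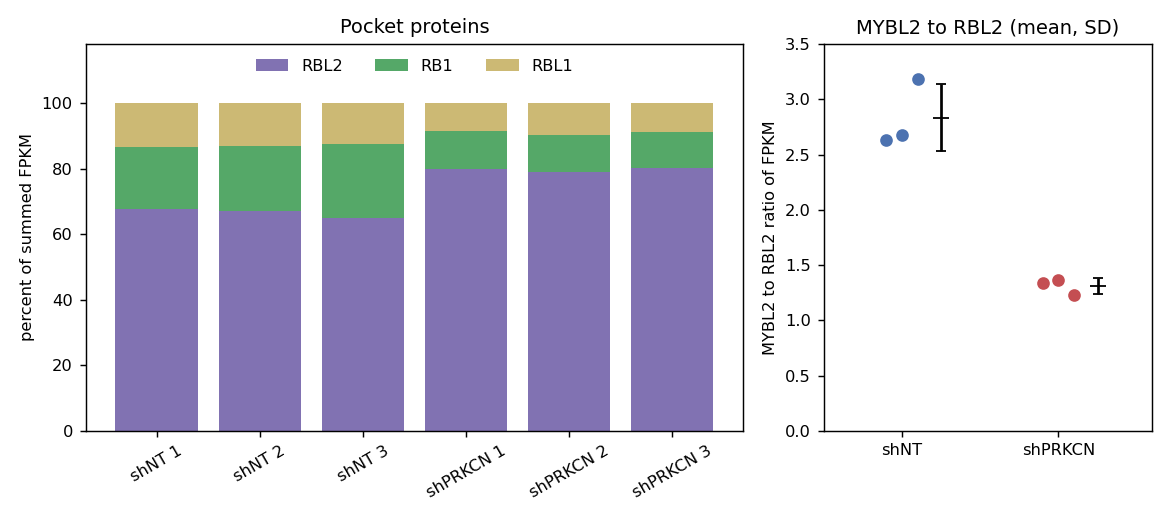
Left, RBL2, RB1 and RBL1 as percent of their summed FPKM in each of the 6 libraries; right, the ratio of MYBL2 to RBL2 FPKM in each library (points) with group mean and SD (bars, n = 3). RBL2 takes 65.0% to 67.7% of the sum in shNT and 79.0% to 80.1% in shPRKCN, and the MYBL2 to RBL2 ratio is 2.64 to 3.18 in shNT and 1.23 to 1.36 in shPRKCN.

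The MuvB core had 5 of 5 subunits lower at the adjusted p, with 1 of them, LIN9, past the fold limit. Over all tested genes 27.8% were lower at the adjusted p and 10.6% past both limits, so 1 of 5 is near that share. LIN9 is a scaffold subunit that the core needs in order to hold MYBL2, and it lies on chr1:226231149-226309767 (minus strand). It measured 16.4, 18.8 and 20.1 CPM in shNT and 11.4, 9.36 and 12.1 CPM in shPRKCN. The groups stood apart, although the libraries within each group varied more than for the abundant members. LIN9 fell to 59.3% of control, a log2 fold change of −0.75 (SE 0.090, edgeR adjusted p = 6.1e-11). Its call was lost on log2(FPKM + 1), where limma gave −0.53, and when edgeR tested against the fold limit itself (adjusted p = 0.087).

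LIN54 and LIN52 came close to the fold limit. LIN54, the subunit that contacts CHR DNA, lies on chr4:82924603-83012941 (minus strand). It measured 22.8, 25.2 and 23.9 CPM in shNT and 16.8, 15.4 and 18.1 CPM in shPRKCN, and no library of one group reached the other. LIN54 fell by 0.51 on the log2 scale (SE 0.073, edgeR adjusted p = 1.1e-08). LIN52, the subunit that DYRK1A phosphorylates to let MuvB bind p130 or p107, lies on chr14:74084956-74201493 (plus strand). It measured 13.5, 12.7 and 12.9 CPM in shNT and 8.89, 8.98 and 9.19 CPM in shPRKCN, and the knockdown libraries were almost alike. LIN52 fell by 0.53 on the log2 scale (SE 0.097, edgeR adjusted p = 3.3e-06), to 69.2% of control.

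LIN37 and RBBP4 moved least. LIN37, a subunit required for repression by DREAM, lies on chr19:35748576-35754519 (plus strand) and had the lowest counts of the group, 251 to 352 per library. It measured 8.24, 9.57 and 8.25 CPM in shNT and 7.39, 7.75 and 6.61 CPM in shPRKCN, where 1 control library was high and the others came near the knockdown values. The log2 fold change was −0.26 (SE 0.114, edgeR adjusted p = 0.047). Its adjusted p was at or above 0.05 in 8 of 16 alternatives. In edgeR it was 0.255 without shNT library 2 (log2 fold change −0.18), 0.0643 without shPRKCN library 1 and 0.204 without shPRKCN library 3. Its reads are the least certain of the group, since 46.7% of its 50-base stretches are shared with overlapping genes.

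RBBP4 is a histone-binding protein that also serves in several chromatin complexes outside MuvB. It lies on chr1:32651208-32686211 (plus strand). It measured 349, 356 and 357 CPM in shNT and 332, 329 and 339 CPM in shPRKCN, so the groups were separate but near to each other. The knockdown mean was 94.3% of control, a log2 fold change of −0.08 (SE 0.034, edgeR adjusted p = 0.028). The adjusted p was at or above 0.05 in 11 of 16 alternatives, among them 0.0553 to 0.106 in edgeR without shNT library 2 or 3 or any 1 of the shPRKCN libraries. Moreover, 25.8% of its 50-base stretches are shared with other genes, among them SYNC on the other strand and its own pseudogenes.

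**Figure D3:**
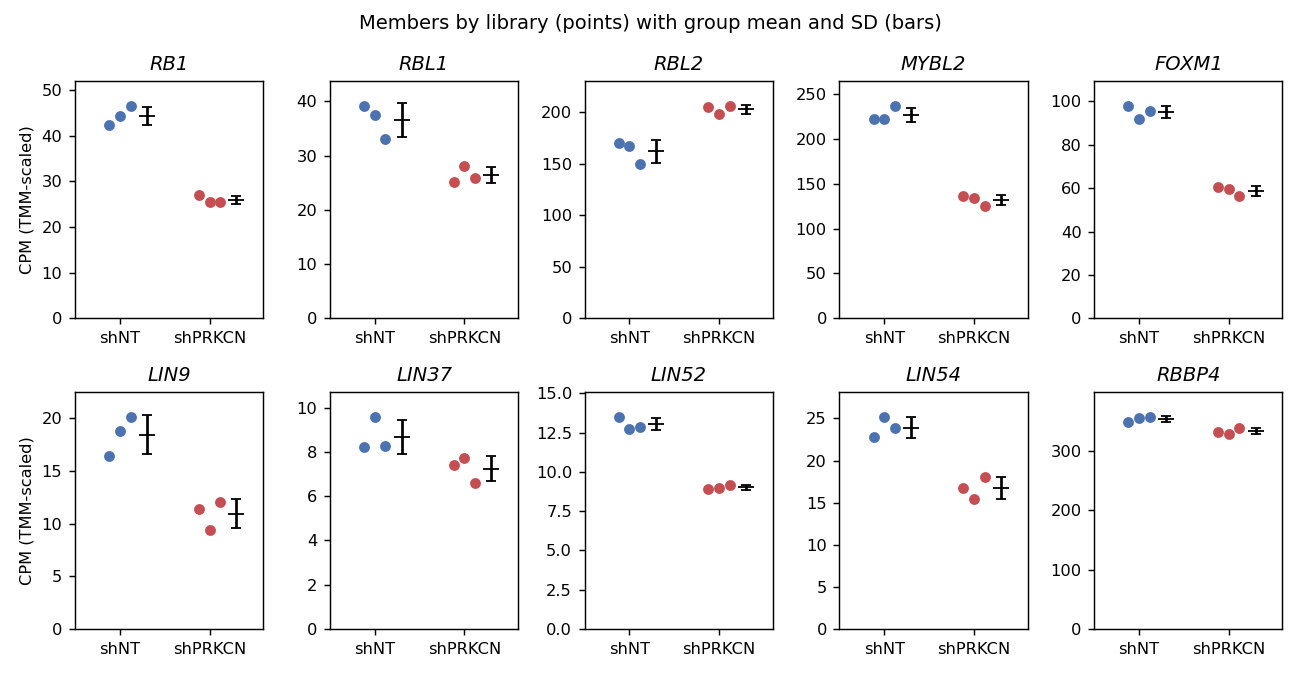
CPM (TMM-scaled, axes from 0) of the 10 members in each library (points, 3 shNT and 3 shPRKCN) with group mean and SD (bars). The groups do not overlap in any panel, RBL2 is the only member with higher points in shPRKCN, and the RBBP4 groups lie close together.

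Both activators of late cell cycle genes were lower past both limits. MYBL2 encodes B-MYB, which joins MuvB in S phase, and it lies on chr20:43667114-43716482 (plus strand). MYBL2 measured 223, 222 and 236 CPM in shNT and 136, 134 and 126 CPM in shPRKCN. No knockdown library came near a control library. The mean went from 227 ± 8.12 to 132 ± 5.57 CPM (SD, n = 3 each), or 58.1% of control, a log2 fold change of −0.78 (SE 0.038, edgeR adjusted p = 2.7e-28) that stood at percentile 7.74 of all tested genes.

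FOXM1 is a forkhead factor that binds MuvB after MYBL2 and activates mitotic genes in G2. It lies on chr12:2857680-2877174 (minus strand). FOXM1 measured 97.7, 92.1 and 95.4 CPM in shNT and 60.8, 59.4 and 56.3 CPM in shPRKCN. The libraries of each group lay within a few CPM of each other and far from the other group. FOXM1 fell to 61.9% of control, a log2 fold change of −0.69 (SE 0.045, edgeR adjusted p = 6.7e-22). ITFG2 overlaps it on the other strand and shares 20.01% of its 50-base stretches, and ITFG2 itself did not pass the test (log2 fold change 0.16, edgeR adjusted p = 0.12).

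The ratio of MYBL2 to RBL2, the activator partner of MuvB set against its usual DREAM partner, was computed from FPKM. It was 2.64, 2.68 and 3.18 in shNT and 1.34, 1.36 and 1.23 in shPRKCN. MYBL2 therefore remained above RBL2 per length in every library, by a smaller margin after knockdown. The mean ratio went from 2.83 ± 0.303 to 1.31 ± 0.0701 (SD, n = 3 each), with p = 0.1 in the 2-sided exact permutation test, again the smallest possible. MYBL2 and RBL2 each separated the groups, in opposite directions, so this p was fixed by their values and adds nothing to the fits of each gene. In all 4 such relations were computed, and the exact permutation p of each remained 0.1 after Benjamini-Hochberg adjustment over them. The 4 are not independent, since the 3 pocket protein shares are parts of the same sum. These are transcript ratios and say nothing of how much protein stood in either complex.

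Levels compared per length differed widely among the members. In shNT the order by FPKM was MYBL2 (84.5 ± 2.98), RBBP4 (44.1 ± 0.618), RBL2 (29.99 ± 2.04), FOXM1 (25.3 ± 0.7), RB1 (9.20 ± 0.434), LIN37 (7.62 ± 0.686), RBL1 (5.82 ± 0.489), LIN54 (3.78 ± 0.196), LIN9 (3.38 ± 0.345) and LIN52 (1.38 ± 0.04), as mean ± SD over 3 libraries. MYBL2 was above 95.9% of tested genes and LIN52 above 29.4%. Only LIN54 and LIN9 overlapped as neighbours in that order. In shPRKCN the order was the same except that LIN37 (6.44 ± 0.465) stood above RB1 (5.46 ± 0.212), and MYBL2 (49.8 ± 1.97), RBBP4 (42.2 ± 1.02) and RBL2 (38.0 ± 1.2) had drawn together at the top. No neighbours overlapped in shPRKCN. FPKM rest on 1 length per gene, which was 9385 bases for LIN52, 5419 bases for LIN9 and 1132 bases for LIN37. Their longest GENCODE transcripts are 2776, 3567 and 1635 bases. The places of these members in the order, and of LIN37 above RB1 in shPRKCN, therefore depend on the length used.

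Genes whose pattern over the 6 libraries was most like MYBL2 or FOXM1 were found by the root mean square difference of log2 CPM, each gene centred on its own mean, over the 11658 genes that averaged 50 or more counts. For MYBL2 they were ZNF107 (0.0273), SUMO3 (0.0298) and HMGB1 (0.034), and for FOXM1 they were CCNB2 (0.0239), WEE1 (0.025) and YWHAH (0.0255). CCNB2 encodes cyclin B2 and WEE1 encodes the kinase that holds back CDK1. The difference between MYBL2 and FOXM1 themselves was 0.057, which ranked FOXM1 as number 42 for MYBL2 and MYBL2 as number 74 for FOXM1. With 6 libraries in 2 groups, this measure is driven above all by the step between the groups.

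The E2F and DP factors examined were split. Of 10 tested, 6 were lower and 4 higher at the adjusted p, and 3 were lower and 1 higher past both limits, with a median log2 fold change of −0.18. Over all tested genes these shares were 27.8% and 26.5% at the adjusted p and 10.6% and 6.15% past both limits, so 1 of 10 higher is near the background. The factors made in cycling cells were lower. E2F1, a classic activator, measured 49.5, 52.2 and 60.7 CPM in shNT and 34.1, 32.0 and 32.8 CPM in shPRKCN (log2 fold change −0.72, SE 0.057, edgeR adjusted p = 1.0e-17). The atypical repressors E2F7 (−1.08, SE 0.057) and E2F8 (−1.31, SE 0.076) fell further. E2F2 (−0.52) and TFDP1, the main DP partner (−0.23), fell as well, both short of the fold limit.

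The E2F factors that pair with p130 and p107 went the other way. E2F4, the DREAM subunit, measured 60.8, 63.1 and 65.1 CPM in shNT and 75.2, 76.6 and 69.6 CPM in shPRKCN. All of its knockdown libraries were above all controls, and it rose by 0.23 on the log2 scale (SE 0.047, edgeR adjusted p = 2.8e-05). E2F5, its closest paralog, rose past both limits (0.77, SE 0.092, edgeR adjusted p = 4.2e-11), from 9.33 ± 0.339 to 16.0 ± 0.948 CPM (SD, n = 3 each). Tested against the fold limit itself, E2F5 was not called (adjusted p = 0.057 in edgeR's glmTreat). Of the other factors in the list, E2F6 (0.30) and TFDP2 (0.32) rose as well, short of the fold limit. E2F3 was at −0.13 (SE 0.048, edgeR adjusted p = 0.023), and its adjusted p was at or above 0.05 in 7 of 16 alternatives, among them 0.115, 0.0779 and 0.156 in edgeR without shNT library 1, shNT library 3 and shPRKCN library 3.

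Of 18 genes for the kinases, cyclins and inhibitors that act on pocket proteins, 16 were listed and 15 tested. At the adjusted p 12 were lower and 3 higher, and past both limits 8 were lower and 1 higher, with a median log2 fold change of −0.65. The 1 of 15 called higher is near the 6.15% of all tested genes, where 10.6% were called lower, and at the adjusted p 27.8% were lower and 26.5% higher. CCNA2 (cyclin A2, the S phase partner of CDK2) measured 131, 131 and 126 CPM in shNT and 47.7, 43.0 and 47.9 CPM in shPRKCN. Its knockdown libraries were all far below the controls, and the log2 fold change was −1.49 (SE 0.045, edgeR adjusted p = 1.3e-39). CDK2 (−0.79), CCNE2 (−1.17) and all 3 D-type cyclins were also called lower, and CCND2, the most abundant of them, went from 111 ± 2.00 to 71.7 ± 1.91 FPKM. CDK6 fell by 0.52 and CDK4 rose by 0.17 on the log2 scale. CCNE1 was at −0.17 (edgeR adjusted p = 0.038), with an adjusted p at or above 0.05 in 10 of 16 alternatives, among them 0.221, 0.0798 and 0.350 in edgeR without shNT library 2, shNT library 3 and shPRKCN library 1. The calls of CCND1, CCND2, CCND3 and CCNE2 were each lost with limma on log2(FPKM + 1) or with glmTreat, and on log2(FPKM + 1) 5 genes of the list were called lower and 0 higher.

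The 4 inhibitors that could be tested were lower too, with log2 fold changes of −1.49 for CDKN2D (p19), −0.92 for CDKN1A (p21), −0.40 for CDKN1C (p57) and −0.29 for CDKN1B (p27). The first 2 of them were past the fold limit. CDKN1B was the most abundant inhibitor, at 121 ± 1.93 FPKM in shNT and 99.98 ± 3.06 FPKM in shPRKCN. CDKN2C had at most 2 counts in any library, did not pass the filter on low counts and was not tested, while CDKN2A and CDKN2B were not among the listed genes. DYRK1B, a relative of the kinase that assembles DREAM, was the only one of the 18 called higher, with 197, 181 and 228 counts in shNT and 320, 403 and 365 counts in shPRKCN (log2 fold change 0.81, SE 0.120, edgeR adjusted p = 3.0e-08). The DYRK1B call was lost on log2(FPKM + 1), where limma gave 0.57, and with glmTreat. DYRK1A itself was at 0.11 (SE 0.038, edgeR adjusted p = 0.0099), with an adjusted p at or above 0.05 in 5 of 16 alternatives, among them 0.0629 and 0.0588 in edgeR without shNT library 3 and shPRKCN library 1.

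The relatives of members examined were MYB, MYBL1 and RBBP7, and all 3 were lower at the adjusted p, as were 27.8% of all tested genes. MYB measured 24.8, 24.8 and 21.9 CPM in shNT and 8.25, 8.88 and 8.77 CPM in shPRKCN (log2 fold change −1.46, SE 0.084, edgeR adjusted p = 1.4e-24). MYBL1 (A-MYB) was at −1.33 (SE 0.144), so all 3 MYB family genes were lower, and per length MYBL2 was by far the most abundant of them in both groups. RBBP7, the paralog of RBBP4, fell by 0.21 on the log2 scale (SE 0.037, edgeR adjusted p = 3.2e-06).

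Known targets of the complexes were lower throughout, where 27.8% of all tested genes were lower at the adjusted p and 10.6% past both limits. Of 30 early E2F targets, genes of DNA replication and nucleotide supply, 30 were lower at the adjusted p and 23 (76.7%) past both limits, with a median log2 fold change of −0.77. The early genes with the largest changes were RRM2, a subunit of ribonucleotide reductase (−1.96, edgeR adjusted p = 5.5e-53), the thymidine kinase TK1 (−1.41) and the origin licensing factor CDC6 (−1.21). CDC6 measured 47.6, 53.5 and 52.4 CPM in shNT and 22.1, 21.4 and 22.9 CPM in shPRKCN. Of 38 late targets of MuvB and FOXM1, genes of mitosis, 38 were lower at the adjusted p and 36 (94.7%) past both limits, with a median of −0.90. Their largest changes were GAS2L3 (−1.28, edgeR adjusted p = 1.5e-17), the kinesin KIF14 (−1.25) and ECT2 (−1.22), which acts in cytokinesis. CCNB1 (−0.50) and CDC25B (−0.46), named after their values were seen, were the 2 late genes short of the fold limit. The target lists were written from textbook knowledge, with earlier results of these data known, and are described here with no set test.

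**Figure D4:**
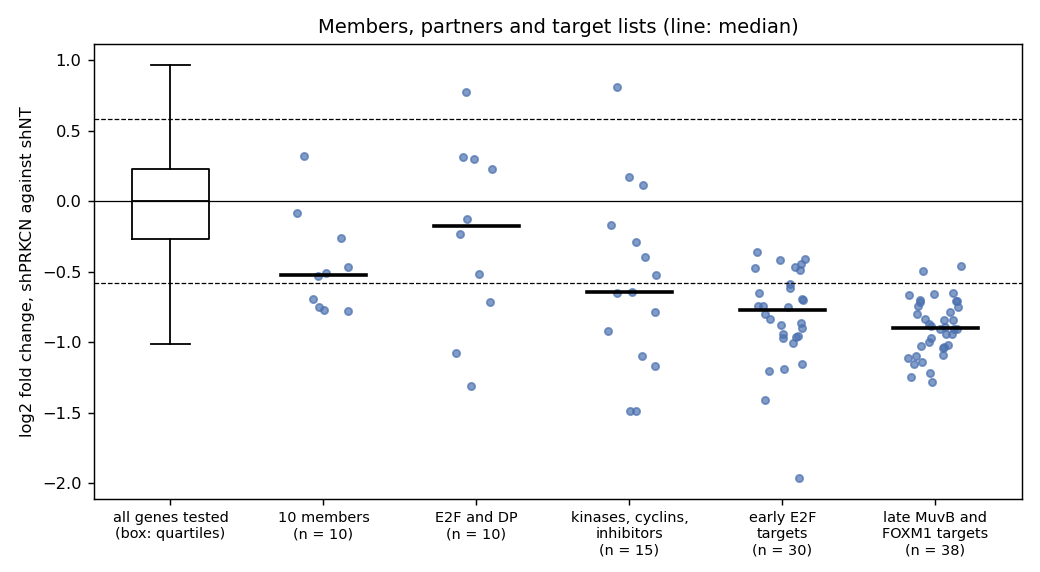
Log2 fold change (shPRKCN against shNT) of each gene of the members and the 4 pathway lists (points, with the median as a line), beside all 13971 tested genes (box of quartiles, whiskers to 1.5 times the interquartile range, outliers not drawn); dashed lines mark the fold limits. All early and late target genes lie below 0, while the E2F and DP factors lie on both sides.

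The CHR letters stood in most late targets, and the E2F letters in most early ones. Of 30 late targets with a promoter entry, 22 (73.3%) held a CHR, against 11.5% of tested genes with an entry. In 18 of the 22 a match started within 60 bases of the gene start, and no such share was computed for other genes. CCNB2 held its CHR from position −29, downstream of CCAAT boxes (searched as CCAAT on both strands) from positions −244, −120, −87 and −54. CCAAT stood in 83.3% of late targets and 37.8% of tested genes. Of 24 early targets, 13 (54.2%) held a strict E2F element and 2 (8.3%) a CHR. CDC6 held a strict element from position 7 that overlapped a core from position 10, and another core from position −25. The lists name genes known in part by these very elements, so the shares are no separate line of evidence.

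Across all tested genes with a promoter entry, those with the letters were called lower more often, with a small difference in the median. The 1118 genes with a CHR in the window had a median log2 fold change of −0.08, with 17.7% called lower. The 8570 without one had a median of 0.01, with 9.35% called lower. The 1118 include the 22 late targets with a CHR, from a list that names genes known in part by this element. Among the late targets the 22 genes with a CHR had a median of −0.91 and the 8 without one −0.84, with 22 of 22 and 6 of 8 called lower, and the difference was not tested. Only TTTGAA and TTCGAA in the window at the first base of the gene were searched. The 8 late targets and the other genes counted as without a CHR are therefore not shown to lack one. Genes with a strict E2F element, 553 in number, were called lower in 13.4% of cases, against 10.1% of the 9135 without. The 553 include 13 early targets (9 called lower) and 3 late targets (3 called lower), from lists that name genes known in part by these elements. Within the early targets the order was the other way, with 69.2% of the 13 genes with a strict element called lower (median −0.74) and 81.8% of the 11 without (median −0.84), again untested.

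Bulk RNA does not separate a lower share of cells in S, G2 or M phase from less RNA of these genes per cell, and those cannot be told apart here. The activity of RB and DREAM rests on phosphorylation and protein levels, which were not measured by these libraries. The falls of IRF4, XBP1, TNFRSF17, PRDM1 and MZB1 and the rises of SDC1 and CD3E moved with the same groups, and their part in the members' differences was not tested.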

How the data were processed

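RNA of 6 MM.1S libraries was measured, 3 shNT and 3 shPRKCN, grouped by the treatment in the labels. The authors deposited unnormalized read counts per gene and FPKM values, and the FPKM follow from the counts, library totals and 1 length per gene. The submitters' processing notes name FastQC, HISAT2, StringTie and GRCh38.p14, without roles, and the strandedness of counting is not given in the sources used here. Library totals of 35625564 to 37730003 counts set the counting precision.

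Counts were scaled by TMM, filtered with filterByExpr and tested with the quasi-likelihood test of edgeR 4.0.16 (R 4.3.3), with Benjamini-Hochberg adjustment over 13971 genes. The limits (0.05 for the adjusted p, 0.58 for the log2 fold change in either direction) are those of the study, which used DESeq2. SE is the log2 fold change divided by the square root of F. Ratios used deposited FPKM with exact permutation tests (Python 3.11.15, scipy 1.17.1). Gene positions and promoters came from RefSeq tables, and shared stretches of 50 bases from GENCODE transcripts.

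Alternatives were DESeq2 1.42.0, other scalings and filters, limma 3.58.1 on log2 FPKM with pseudocounts of 1 and 0.1, a replicate block, each library left out, no fold limit and glmTreat. Scripts were tested on simulated data. The members, the lists and the tests were chosen with earlier results of these data known. Named were all members, genes of the E2F, kinase and relative lists, the 3 targets per list with the largest change at a mean of at least 50 counts and any not lower at the adjusted p (there were none), the 3 genes most like MYBL2 and FOXM1, and PRKD3. AKTIP, ITFG2 and SYNC are named for their overlap with members.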

Additional observations from a re-analysis of the deposited data

How the results depend on the processing

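The members, PRKD3, CCNB2, the named targets and the E2F, kinase and relative lists were recomputed under up to 18 alternatives, and no gene among them changed direction. CCNB1, CDC25B, the marker genes, the overlapping genes and the other genes like MYBL2 or FOXM1 were not recomputed one by one. The calls of MYBL2, RB1 and FOXM1 held in all 18. Of these, the setting without a fold limit reused the main fit, so no call could be lost and no direction could change there. Counts of calls moved by over 1.5 times in 4 settings. On log2(FPKM + 1), limma called 651 genes lower and 317 higher, and 5 kinase, cyclin and inhibitor genes lower and 0 higher. With an FPKM of at least 1 in 3 libraries these were 635, 310, 5 and 0. Without a fold limit 3877 genes were lower and 3700 higher, with 9 and 1 members, 6 and 4 E2F and DP factors, and 3 kinase, cyclin and inhibitor genes higher. With glmTreat 821 genes were lower and 339 higher, with 0 E2F and DP factors and 0 kinase, cyclin and inhibitor genes higher. The added pseudocount shrinks the changes of low genes, and glmTreat asks for a change beyond 0.58 itself. Among the genes recomputed one by one, those that lost their call were LIN9, CCND3 and DYRK1B in 3 settings each, CCNE2 in 2, and CCND1, CCND2 and E2F5 in 1 each, all with limma on log2(FPKM + 1) or glmTreat. The counts of target genes called lower ran from 19 to 30 for the early list (23 reported) and from 32 to 38 for the late list (36 reported), lowest with glmTreat and highest without a fold limit. Scaling moved the median of all genes by at most 0.0195 on the log2 scale.

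Replicate numbers showed no sign of pairing the libraries. After centring within groups, same-numbered libraries correlated at −0.081, −0.039 and −0.049 over 11659 genes, and the other pairs at −0.048 to 0.097. Values centred within so small a group are tied to each other, so these correlations cannot exclude pairing. With the replicate block 1463 genes were lower and 854 higher in edgeR, 4 members were lower, and the adjusted p of LIN37 and RBBP4 became 0.054 and 0.058. Depth limits LIN37 most among the members, since the others had at least 332 counts in every library, and it limits MYBL1, DYRK1B, CCND1, CCNE2 and CDKN2D as well.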
